A study of Mus musculus with 6 samples.

Results

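The miR-148 and miR-152 family was followed here through all of its mature arms in small RNA libraries of N2a cells, a mouse neuroblastoma line. The arms were chosen by name: every entry of the miR-148a, miR-148b and miR-152 hairpins was taken, which gave 6 of the 685 mature miRNAs listed, from 3 hairpins. The family itself was singled out with values of the RSL3 comparison already known, chiefly a lower level of the miR-152 5p arm after RSL3. Its differences between the groups are therefore described by their sizes and errors. No p-value is printed for a family arm, and arms under a p threshold are named only as a description. All cells had been differentiated toward neurons with 10 µM retinoic acid over 96 h in medium with reduced serum. The RSL3 group then received 5 µM RSL3, an inhibitor of the lipid peroxidase GPX4 that induces ferroptosis, for 24 h, and the control group received the solvent DMSO. Each group had 3 libraries, and the labels do not say whether these came from separate cultures.

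A microRNA hairpin is cut by Drosha and Dicer into a duplex of a 5p and a 3p arm, of which usually 1 is kept by an Argonaute protein as the guide and the other is degraded. The guide finds its target messages mainly through its seed, bases 2 to 8. The 3p arms of this family are the usual guides. They are known for repressing DNA methyltransferase 1, a target also described for miR-152 in human neuroblastoma cells given retinoic acid, and they have been reported to repress the transferrin receptor, which imports the iron that ferroptosis depends on. The hairpins of miR-148b and miR-152 are carried by a paralogous gene pair, Copz1 and Copz2, which encode zeta subunits of the COPI vesicle coat.

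The mature sequences show why these 6 entries form 1 family on the 3p side and a looser one on the 5p side. They are given 5′ to 3′ from RefSeq (build GRCm38.p6), with the seed in capitals, and all 6 arms were matched.
mmu-miR-148a-3p: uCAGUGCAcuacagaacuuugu
mmu-miR-148b-3p: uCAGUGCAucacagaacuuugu
mmu-miR-152-3p: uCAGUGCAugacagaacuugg
mmu-miR-148a-5p: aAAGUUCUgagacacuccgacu
mmu-miR-148b-5p: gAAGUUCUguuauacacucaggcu
mmu-miR-152-5p: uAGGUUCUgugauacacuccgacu

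The 3 3p arms carried the same seed, CAGUGCA, and 0 others had it among the 1679 mature miRNA names held by RefSeq. Counted from 1 at the 5′ end, miR-148a-3p and miR-148b-3p differed at 2 of 22 bases (C9U and U10C, written from miR-148a-3p to miR-148b-3p). From miR-148b-3p to miR-152-3p there were 2 differences over the 21 bases compared (C10G and U20G). All 3 also shared the run ACAGAACUU from base 11 on. With so few differences, a mapping that allows mismatches could move reads between these entries. How such reads were assigned is not given in the sources used here. Read numbers of 0 other entries lay within 1% of those of a family arm in every library, so no family arm duplicated another entry. The 5p arms were less alike: miR-148a-5p and miR-148b-5p shared the seed AAGUUCU but differed at 9 of 22 bases, and miR-152-5p had a seed of its own, with A3G relative to both.

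The hairpins are shown with their arms in capitals, because much of what follows concerns the balance between the arms.
Mir148a: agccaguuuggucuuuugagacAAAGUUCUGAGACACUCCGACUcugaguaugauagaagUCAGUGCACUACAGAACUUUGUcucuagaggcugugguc
Mir148b: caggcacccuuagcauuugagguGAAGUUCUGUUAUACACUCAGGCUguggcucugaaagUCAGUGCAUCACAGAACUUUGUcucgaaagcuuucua
Mir152: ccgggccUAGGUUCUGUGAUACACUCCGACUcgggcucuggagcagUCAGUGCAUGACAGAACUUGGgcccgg

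Mir148a lies at chr6:51269812-51269910 on the minus strand, outside any other annotated gene of GENCODE vM21, with Nfe2l3 the nearest protein-coding gene at 162760 bases. Mir148b (chr15:103285125-103285221, plus strand) lies in an intron of Copz1, on the same strand. Mir152 (chr11:96850393-96850465, plus strand) lies in an intron of Copz2, also on the same strand. The arms were separated by 16 bases in Mir148a, 13 in Mir148b and 15 in Mir152. RNAfold predicted 17, 15 and 18 bases of the 5p arm to pair with the 3p arm, at minimum free energies of -41, -30.9 and -43.5 kcal/mol for the whole hairpins. Mir148b thus had the weakest predicted fold of the 3, although Mir152 is the shortest at 73 bases.

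The libraries held 4306460 to 6058006 recovered miRNA reads in the DMSO group and 3406276 to 4989380 in the RSL3 group, and RSL3 library 2 was the shallowest. The values are the deposited CPM, which had been scaled between libraries (see the processing notes), and a miRNA with no read could have been present at up to 3 reads, or 0.470 to 0.941 CPM. Neuronal markers were present, among them miR-218-5p at 13919 to 19789 CPM and miR-124-3p at 135 to 221 CPM. Markers of other cell types were mixed: miR-143-3p, abundant in fibroblasts and smooth muscle, stood at 33773 to 36634 CPM, while miR-122-5p of liver stood at 1.41 to 5.96 CPM and 3 of the 4 blood markers (all but miR-451a) had no row. Of the epithelial markers, miR-203-3p stood at 343 to 449 CPM, above miR-124-3p. The miR-200a, miR-200b and miR-200c 3p arms lay between 0.888 and 10.6 CPM, and miR-205-5p had no row. Of the glial markers, miR-219a-2-3p stood at 119 to 176 CPM and miR-338-3p at 9.73 to 16.5 CPM. Of the 27 marker entries, 23 were listed, and the summed neuronal list was 21612 to 25771 CPM in DMSO and 19818 to 25270 CPM in RSL3 libraries. The summed fibroblast, smooth muscle and endothelial list was 35832 to 39029 and 36744 to 37868 CPM in these groups, and the groups overlapped in both lists. Of the 23, limma and edgeR called 0 and DESeq2 called 2 (5.41% of all 666 miRNAs tested). DESeq2 gave no adjusted p to 233 of the 666, so these could not be called by it. Among them were miR-122-5p, miR-133a-3p, miR-206-3p and the miR-200a, miR-200b and miR-200c 3p arms. At an unadjusted limma p under 0.05, 3 were higher and 3 lower (17.3% of all in either direction), and 3 had groups that did not overlap (24.3% of all). The DESeq2 calls were miR-145a-5p of smooth muscle, at 952 ± 93.0 CPM with DMSO and 666 ± 78.4 CPM with RSL3, and miR-126a-3p of endothelium, at 614 ± 29.8 and 802 ± 72.5 CPM. Their list had 4 of 5 log2 fold changes negative (median -0.24), among them miR-199a-3p at -0.34 and miR-214-3p at -0.24, with miR-126a-3p the positive one, while its sum was mostly miR-143-3p. The muscle list had 3 of 3 negative (median -0.41), and the groups of miR-133a-3p did not overlap, at 4.33 ± 1.24 CPM with DMSO and 1.85 ± 1.13 CPM with RSL3. These are low counts: miR-133a-3p and miR-206-3p both stood at 1.02 CPM in RSL3 library 1, where 3 reads make 0.762 CPM. The groups of the more abundant miR-1a-3p overlapped (65.8 to 185 CPM over all libraries), as did those of miR-206-3p. The part of other cell types in the family's values was not tested. Less RNA per cell and fewer cells with a miRNA cannot be told apart in such bulk libraries.

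The family was dominated by its 3p arms, and mmu-miR-148b-3p was the most abundant member in every library. It measured 6564, 12006 and 10420 CPM in DMSO libraries 1 to 3 and 8208, 4335 and 5955 CPM in RSL3 libraries 1 to 3, and ranked 20th of the 685 entries by mean level. Next came mmu-miR-148a-3p, the family member best known from liver and lymphocytes, at 1799, 1530 and 1723 CPM with DMSO and 1463, 2590 and 1407 CPM with RSL3. The Copz2-intron guide mmu-miR-152-3p stood at 987, 1097 and 978 CPM with DMSO and 1224, 970 and 1266 CPM with RSL3. The order miR-148b-3p, miR-148a-3p, miR-152-3p, then the 5p arms of miR-148b, miR-152 and miR-148a was found in all 6 libraries. The neighbours miR-148a-3p and miR-152-3p came close to each other in RSL3 libraries 1 and 3. The 6 arms together held 0.756% to 1.55% of the listed signal.

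**Figure D1:**
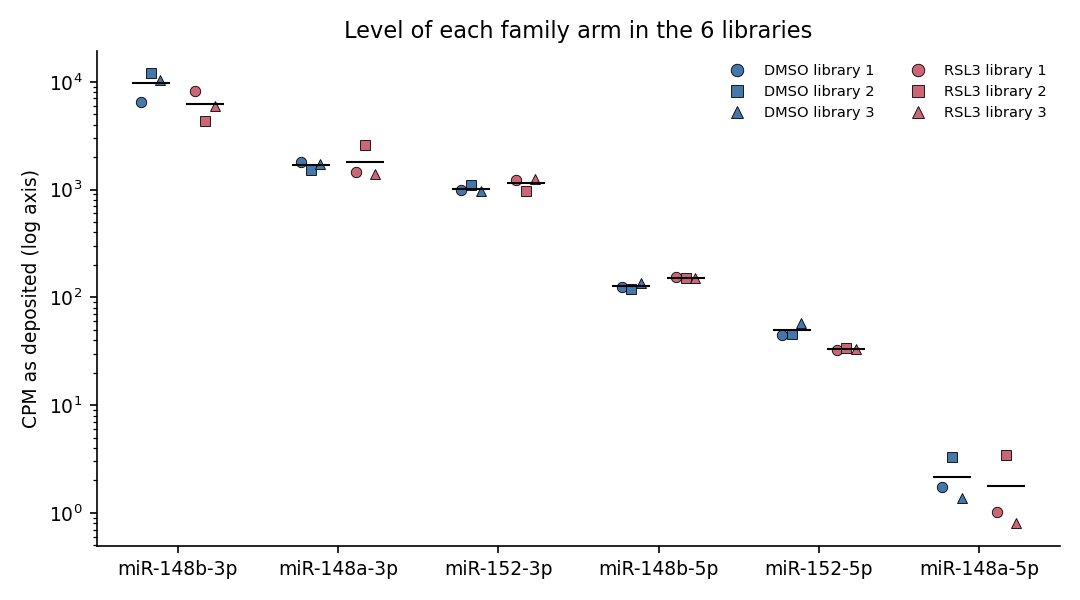
Deposited CPM (log axis) of the 6 family arms in each of the 3 DMSO and 3 RSL3 libraries; points are libraries and black lines are group means. The 3 3p arms lie above the 3 5p arms in every library, and the groups are separate for miR-148b-5p and miR-152-5p.

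The 5p arms were minor products. The miR-148b passenger mmu-miR-148b-5p measured 125, 119 and 136 CPM with DMSO and 154.0, 151.9 and 150.8 CPM with RSL3, so all 3 RSL3 libraries lay above all 3 DMSO libraries. For mmu-miR-152-5p the values were 44.4, 45.3 and 58.1 CPM with DMSO and 32.3, 33.6 and 33.3 CPM with RSL3, so here all 3 RSL3 libraries lay below. These are the 2 arms of 6 whose groups did not overlap, where 24.3% of the 666 miRNAs tested had groups that did not overlap. The scarcest arm, mmu-miR-148a-5p, was counted with 11, 15 and 7 reads in the DMSO libraries and 4, 11 and 4 reads in the RSL3 libraries. That is 1.72, 3.33 and 1.38 CPM against 1.02, 3.45 and 0.802 CPM. The 95% Poisson interval of its 15 reads spanned 1.86 to 5.49 CPM and that of the 4 reads in RSL3 library 3 spanned 0.219 to 2.05 CPM, covering counting error only. Its coefficient of variation was 48.6% among DMSO and 83.8% among RSL3 libraries, above the 30.2% and 39.7% that counting error gives. No difference between the groups was resolved for it with these reads and this spread.

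Between RSL3 and DMSO the arms of miR-148b, and likewise those of miR-152, had log2 fold changes of opposite sign. The level of miR-148b-3p was 9663 ± 2799 CPM with DMSO and 6166 ± 1945 CPM with RSL3 (SD, n = 3 per group), 0.637 of the control on the log2(CPM + 1) scale, a log2 fold change of -0.65 ± 0.23 (SE). Its groups overlapped, because DMSO library 1 lay below RSL3 library 1. Of the 666 miRNAs tested, 7 had a more negative log2 fold change than miR-148b-3p. The other arm of that hairpin, miR-148b-5p, went from 126 ± 8.61 to 152.2 ± 1.64 CPM, a log2 fold change of 0.27 ± 0.12. The miR-152 hairpin had the reverse arrangement. There the 5p arm was the lower one after RSL3, at 49.2 ± 7.66 against 33.0 ± 0.682 CPM, 0.683 of the control (log2 fold change -0.55 ± 0.16), while miR-152-3p went from 1021 ± 66.0 to 1153 ± 160 CPM with overlapping groups (0.17 ± 0.12).

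The miR-148a arms also had log2 fold changes of opposite sign, both smaller than their SE. The level of miR-148a-3p was 1684 ± 139 CPM with DMSO and 1820 ± 667 CPM with RSL3, a log2 fold change of 0.06 ± 0.19, and the high RSL3 mean came from library 2. Without RSL3 library 2 the log2 fold change was -0.23, and without DMSO library 2 it was -0.01. For miR-148a-5p it was -0.26 ± 0.36, and -0.0089 without DMSO library 2. So 3 arms had a positive and 3 a negative log2 fold change, with a median of -0.10 over the family beside 0.0013 over all 666.

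Fitted over all 666 miRNAs with limma, 0 of the 6 arms passed a Benjamini-Hochberg adjusted p of 0.05, the threshold that 0.751% of all tested passed. Before adjustment, 1 arm was higher (miR-148b-5p) and 2 were lower (miR-148b-3p and miR-152-5p) at p under 0.05, where 17.3% of all tested were under it. On the recovered reads edgeR called 0 of the 6 (0.901% of all tested), and DESeq2 called 1, miR-152-5p, lower (5.41% of all tested). DESeq2 gave no adjusted p to 233 of the 666, among them miR-148a-5p. With limma and without RSL3 library 1, miR-148b-3p was called lower with a log2 fold change of -0.88. In that setting 7 of all 651 miRNAs tested were called higher and 12 lower. Nothing is read from these counts, since the family was picked with this contrast in view.

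The spread between replicate libraries set miR-148b-3p and miR-148a-3p apart within the family. The coefficient of variation of miR-148b-3p was 29.0% among DMSO and 31.5% among RSL3 libraries, against medians of 9.63% and 9.47% over the 227 tested miRNAs with a mean of at least 100 CPM. In both groups 98.7% of those miRNAs varied no more than it did. The highest and lowest library differed 1.83-fold within DMSO and 1.89-fold within RSL3, where counting error alone would give a variation of 0.449% and 0.629%. Depth therefore did not limit this arm, and its spread between libraries did. For miR-148a-3p the variation was 8.24% in DMSO but 36.7% in RSL3 libraries. The counterpart miR-148b-5p had only 6.81% and 1.08%, the latter below the 4.04% that counting error gives, so its 3 RSL3 libraries lay closer together than counting error alone gives on average.

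The 3p arms did not move together across the libraries, and RSL3 library 2 stood apart in their mix. There miR-148b-3p was at its lowest and miR-148a-3p at its highest of all 6 libraries, and miR-148b-3p made up 54.9% of the 3p sum, against 70.2%, 82.1% and 79.4% in the DMSO libraries and 75.3% and 69.0% in RSL3 libraries 1 and 3. The ratio of miR-148b-3p to miR-148a-3p was 3.65, 7.85 and 6.05 with DMSO and 5.61, 1.67 and 4.23 with RSL3. Leaving out RSL3 library 2 brought the log2 fold change of miR-148b-3p to -0.42, and leaving out DMSO library 2 brought it to -0.47. The share of miR-152-3p in the 3p sum was 10.6%, 7.49% and 7.45% with DMSO and 11.2%, 12.3% and 14.7% with RSL3, with no overlap. Since the 3 arms share a seed, their sum gives the CPM of that seed among the entries whose sequence was known, 554 of 685. It was 12368 ± 2721 CPM with DMSO and 9140 ± 1564 CPM with RSL3, with overlapping groups.

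**Figure D2:**
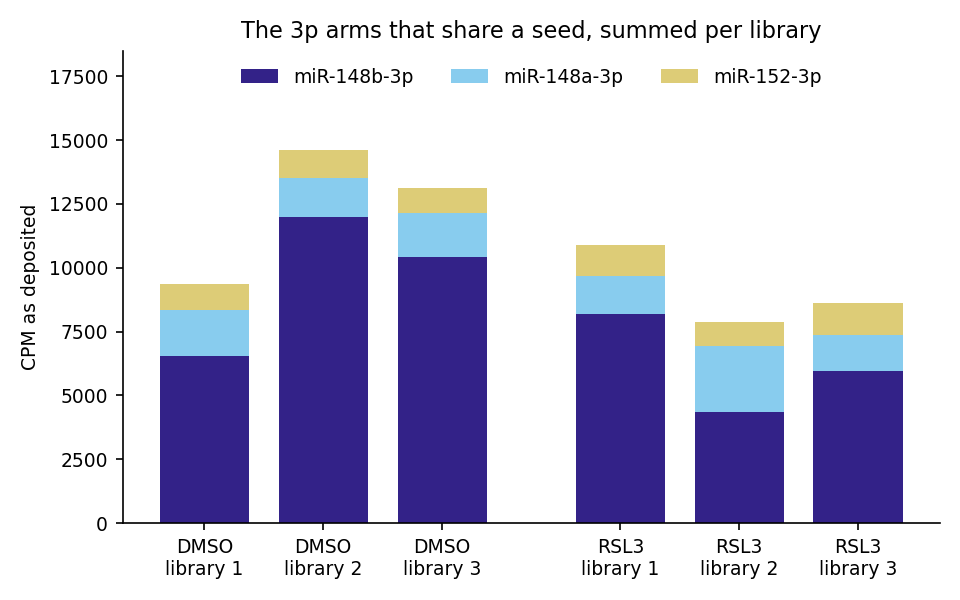
Stacked bars of the deposited CPM of miR-148b-3p, miR-148a-3p and miR-152-3p in each library, with bar height the sum of the 3 arms. The sum runs from 7895 CPM (RSL3 library 2) to 14633 CPM (DMSO library 2), and the miR-148a-3p part is largest in RSL3 library 2.

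The balance of the arms was steep in all 3 hairpins and differed between them. Reads of the 5p arm made up 0.0570% to 0.217% of both arms in miR-148a, 0.978% to 3.39% in miR-148b and 2.56% to 5.60% in miR-152. In DMSO libraries the mean log2 ratio of 5p to 3p, with 1 CPM added to each arm, was -9.11 ± 0.56 for miR-148a, -6.20 ± 0.48 for miR-148b and -4.35 ± 0.27 for miR-152. The libraries of the 3 hairpins did not overlap within that group. As miR-148a-5p stood at only 1.38 to 3.33 CPM there, the added 1 makes the miR-148a ratio less steep than its read shares. Among the 182 hairpins with both arms tested, 2 leaned further to 3p than miR-148a, 10 further than miR-148b and 23 further than miR-152. The median of all 182 was 0.13. In RSL3 library 2 the miR-148b and miR-152 hairpins gave nearly the same 5p share, 3.39% and 3.35%.

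After RSL3 the balance of miR-148b lay further toward 5p and that of miR-152 further toward 3p. The 5p share of miR-148b was 1.87%, 0.978% and 1.28% with DMSO and 1.84%, 3.39% and 2.47% with RSL3, so the groups overlapped only through DMSO library 1 and RSL3 library 1. Its log2 ratio went from -6.20 ± 0.48 to -5.28 ± 0.45, a difference of 0.92 ± 0.30 (SE), which was the largest toward 5p of the 182 hairpins. Others lay within this SE of it, such as miR-154 at 0.91 and miR-380 at 0.885, and 7 hairpins had a larger absolute difference. The miR-148b difference was 0.69 without RSL3 library 2, 0.69 without DMSO library 2 and 1.17 without DMSO library 1. The 5p share of miR-152 was 4.30%, 3.97% and 5.60% with DMSO and 2.57%, 3.35% and 2.56% with RSL3, with no overlap. Its log2 ratio went from -4.35 ± 0.27 to -5.07 ± 0.23, a difference of -0.72 ± 0.21, the 14th largest toward 3p. For miR-148a the difference was -0.32 ± 0.29 with overlapping groups, and it was 0.0021 without DMSO library 2.

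**Figure D3:**
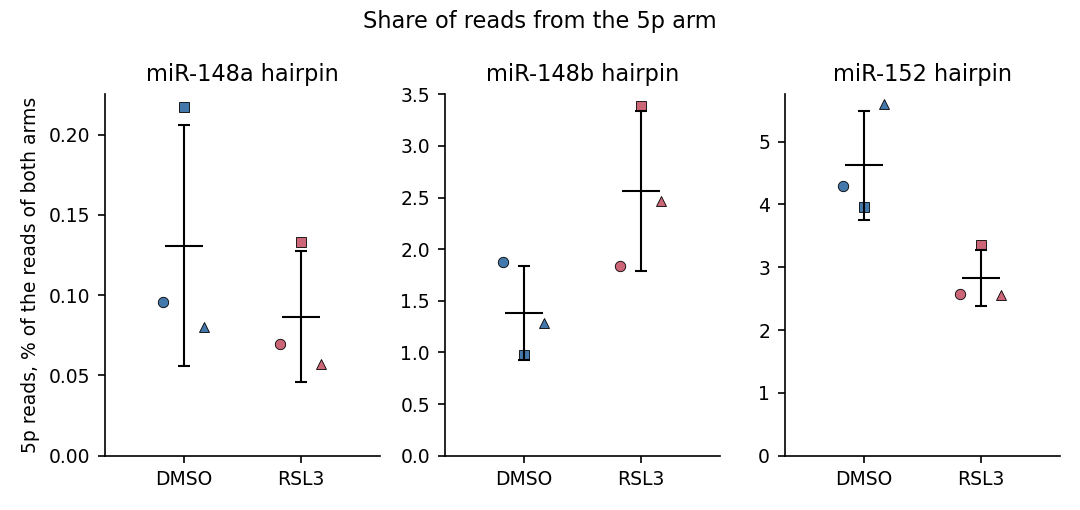
Share of reads from the 5p arm (percent of the reads of both arms, linear axes from 0, 1 panel per hairpin) in the DMSO and RSL3 libraries; circles, squares and triangles are libraries 1, 2 and 3, and lines with bars are mean ± SD (n = 3). The miR-152 groups are separate (3.97% to 5.60% against 2.56% to 3.35%), and the miR-148b groups touch at 1.87% and 1.84%.

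In the fit over 182 hairpins 0 of the 3 family hairpins passed an adjusted p of 0.05 in limma, which 2.75% of all hairpins passed, and edgeR and DESeq2 were not run on this ratio. At an unadjusted p under 0.05 there were 2 (miR-148b toward 5p and miR-152 toward 3p), where 22.0% of all hairpins were under it. The groups did not overlap in 1 of the 3 (miR-152) and in 24.2% of all hairpins. With a pseudocount of 5 in place of 1, the ratios of miR-148b and miR-152 were both called, at 0.91 and -0.67. In that setting 11 of all 182 hairpins were called, where 5 were called with a pseudocount of 1. As the hairpins were picked with this contrast known, the counts are a description.

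**Figure D4:**
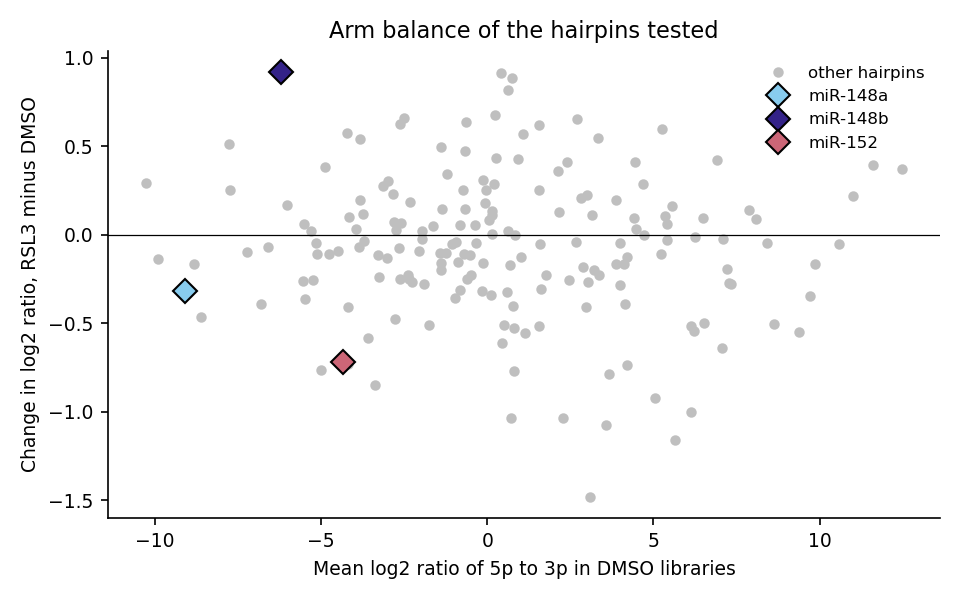
Mean log2 ratio of 5p to 3p in DMSO libraries (horizontal) against the difference in that ratio, RSL3 minus DMSO (vertical), for the 182 hairpins tested, each point 1 hairpin. The family hairpins lie at the left, with miR-148b highest at 0.92, close to miR-154 at 0.91, and miR-152 at -0.72.

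Like arms of the hairpins in Copz1 and Copz2 can be set side by side as a description; the 5p ratio joins the 2 arms whose groups did not overlap, in opposite directions, so its separation follows from values already given. The ratio of miR-148b-5p to miR-152-5p, the passengers, was 2.82, 2.62 and 2.34 in DMSO libraries 1 to 3 and 4.77, 4.52 and 4.53 in RSL3 libraries 1 to 3. The means were 2.59 ± 0.24 and 4.61 ± 0.14. The ratio of their guides, miR-148b-3p to miR-152-3p, was 6.65, 10.9 and 10.7 with DMSO and 6.70, 4.47 and 4.70 with RSL3, so it was lower in 2 of the 3 RSL3 libraries than in any DMSO library, and RSL3 library 1 lay at the level of DMSO library 1. The 3 5p arms together were at 178 ± 15.1 CPM with DMSO and 187 ± 2.02 CPM with RSL3, with overlapping groups.

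**Figure D5:**
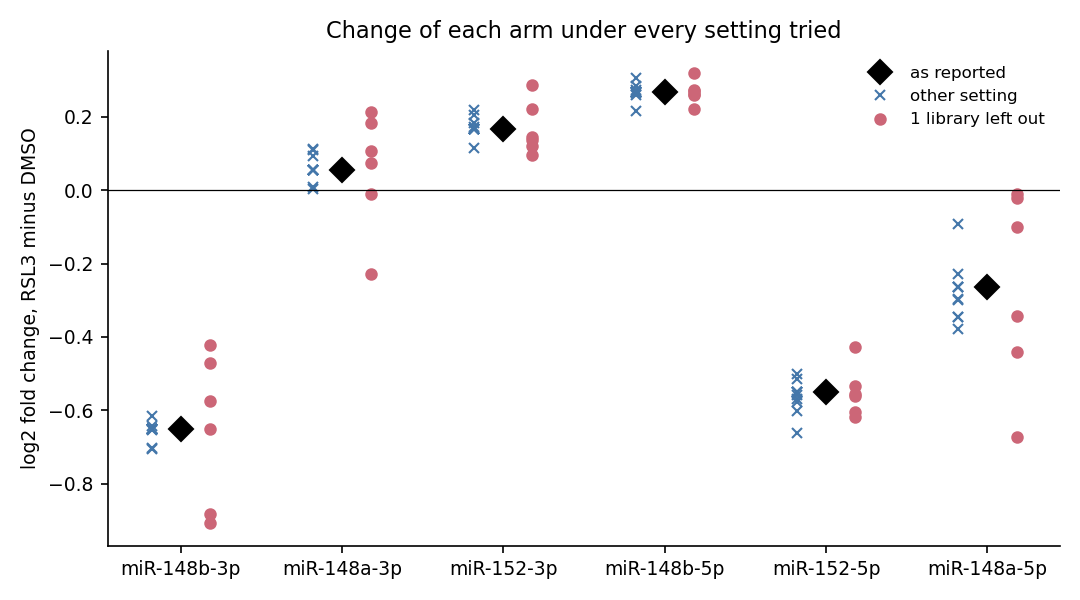
Log2 fold change (RSL3 minus DMSO) of each arm as reported (diamonds), under other settings or tools (crosses) and with 1 library left out (circles). miR-148b-3p and miR-152-5p stay below 0 and miR-148b-5p and miR-152-3p above 0 throughout, while miR-148a-3p falls on either side when 1 library is left out.

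Some miRNAs outside the family had a pattern over the 6 libraries near that of an arm, measured as the mean absolute difference of mean-centred log2(CPM + 1) among 412 miRNAs with a mean of at least 10 CPM. Nearest to miR-152-5p were miR-301b-5p (0.08) and miR-615-3p (0.09), against a median of 0.29 over all 412. Nearest to miR-148b-3p were miR-374b-5p (0.13) and miR-19a-3p (0.17), with a median of 0.45. The values of miR-374b-5p, 793, 1357 and 1171 CPM with DMSO and 805, 621 and 740 CPM with RSL3, had the same low DMSO library 1 and the same low RSL3 library 2 as miR-148b-3p. Nearest to miR-148a-3p were miR-9-3p (0.07) and miR-340-5p (0.08), both highest in RSL3 library 2, at 201 and 311 CPM. For miR-148b-5p the nearest were miR-125a-3p (0.04) and miR-344c-3p (0.05), for miR-152-3p they were miR-140-5p (0.04) and miR-30a-5p (0.06), and for the scarce miR-148a-5p, miR-7a-1-3p (0.27) and miR-337-5p (0.28).

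The miR-130 and miR-301 3p arms hold 6 bases of the family seed, AGUGCA, from base 2 on, where the family has them from base 3 on. They are shown, seed in capitals, because this shift by 1 base gives another seed from nearly the same letters; RefSeq entries were matched for 3 of the 4 arms listed.
mmu-miR-130a-3p: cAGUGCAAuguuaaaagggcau
mmu-miR-130b-3p: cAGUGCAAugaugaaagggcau
mmu-miR-301a-3p: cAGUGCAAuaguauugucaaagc

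These arms were scarce beside the family. Their sum was 199 ± 2.89 CPM with DMSO and 175 ± 4.87 CPM with RSL3, where the family's 3p sum was 12368 and 9140 CPM. Of 4 tested, 0 passed in limma, edgeR or DESeq2, and all 4 log2 fold changes were negative (median -0.15), as were 332 of all 666. At an unadjusted p under 0.05, 0 were higher and 1 lower, beside 17.3% of all in either direction, and 2 of the 4 had groups that did not overlap, beside 24.3% of all. The most abundant were miR-130b-3p (101 ± 3.35 against 87.8 ± 1.39 CPM, log2 fold change -0.20) and miR-130a-3p (57.6 ± 3.36 against 53.2 ± 1.54 CPM, -0.11). The lower one, miR-301a-3p, was named after its values were seen, at 14.1 ± 0.859 against 8.65 ± 0.439 CPM (-0.65, limma adjusted p = 0.095).

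Other miRNAs reported to act on DNA methyltransferases, the known targets of the family, were 9 entries such as the miR-29 guides. In limma 0 passed. At an unadjusted p under 0.05, 4 of the 9 were higher and 0 lower, beside 59 higher and 56 lower of all 666. The higher ones were miR-126a-3p, miR-185-5p, miR-101a-3p and miR-101b-3p. Quantile normalization gave 2 higher and 1 lower, and rescaling without the 5 most abundant gave 3 higher and 2 lower. The miR-29 guides had negative log2 fold changes: miR-29a-3p -0.22, miR-29b-3p -0.26 and miR-29c-3p -0.25. In 5 of the 9 the groups did not overlap, beside 24.3% of all, and of these miR-29b-3p was lower with RSL3. Of the 9, 5 log2 fold changes were positive and 4 negative, with a median of 0.12 beside 0.0013 over all. The most abundant were miR-143-3p (-0.0011) and miR-101b-3p (0.29, from 5800 ± 757 to 7035 ± 229 CPM, limma adjusted p = 0.25). edgeR called 0 and DESeq2 called miR-126a-3p, also an endothelial marker, higher (0.39, adjusted p = 0.0455); without RSL3 library 2, limma called miR-185-5p higher (0.50). All of these except miR-143-3p and miR-101b-3p were named after their values were seen. Of 12 miRNAs reported to act on genes of iron uptake, storage or export, none, that is 0, were called by limma, edgeR or DESeq2. Of all tested, these called 0.751%, 0.901% and 5.41%. DESeq2 gave no adjusted p to miR-31-5p, miR-200a-3p and miR-200b-3p of this list, so it could not call them. At an unadjusted limma p under 0.05, 2 of the 12 lay lower and 0 higher, a share near the 17.3% of all 666. The lower ones were miR-22-3p at -0.31 and miR-19a-3p at -0.45, named after their values were seen. The groups did not overlap in 2 of the 12, beside 24.3% of all 666. These were miR-22-3p, lower with RSL3, and miR-210-3p, higher (25.6 ± 0.952 CPM with DMSO, 33.5 ± 7.45 CPM with RSL3). The latter was also named after its values were seen. The list had a median log2 fold change of 0.08. Its most abundant entries were miR-29a-3p (-0.22) and miR-20a-5p (0.09).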

How the data were processed

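Small RNA of 15 to 35 nt was sequenced on an Illumina NextSeq, per the labels' protocols. The submitters' processing notes name cutadapt, Bowtie, edgeR and the build GRCm38, with no order or settings. The authors deposited 1 signal value per miRNA under the name CPM. In each library, 100% of these values were whole reads (within 0.01) times a constant, and the divisor equalled the recovered reads times their TMM factor (0.936 to 1.05). Plain CPM had been assumed when the design was written. The members, lists and tests were chosen with earlier results of these data known. The list of names given for the family held 5 arms, and the rule by hairpin name added miR-148a-5p.

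R 4.3.3 with limma 3.58.1 tested log2(CPM + 1) with a mean-variance trend, two-sided, with Benjamini-Hochberg adjustment, over 666 miRNAs at 1 CPM or more in at least 3 libraries. All 6 family arms passed this filter, miR-148a-5p in 5 libraries. Such fold changes understate low miRNAs. Log2 ratios of (5p + 1) to (3p + 1) were tested alike over 182 hairpins. edgeR 4.0.16 (quasi-likelihood) and DESeq2 1.42.0 used the recovered reads. P-values reflect the spread between these libraries, which may be technical. The tests were tried on simulated data. Sequences came from RefSeq, positions (1-based) from RefSeq and GENCODE vM21 on GRCm38, and 554 of 685 entries matched a RefSeq name. Named by plan were all family arms, the 2 most abundant and any called member of each list, and the 2 nearest in pattern to each arm. The cell type markers were also set in the plan. Other list members, and the hairpins miR-154 and miR-380, were named after their values were seen. Folding used RNAfold 2.7.2. Alternatives were other pseudocounts, filters, scalings, variance models and tools, the replicate block, and leaving out each library.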

Additional observations from a re-analysis of the deposited data

How the results depend on the processing

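The count of family arms called, 0 as reported, was 1 in DESeq2 (miR-152-5p), and leaving out each library in turn gave 0 to 1 (miR-148b-3p, without RSL3 library 1). With a pseudocount of 5, 2 family hairpins were called for their arm ratio (0 as reported). For the DNA methyltransferase list, 0 as reported, DESeq2 called 1, and leaving out libraries gave 0 to 1 (miR-185-5p, without RSL3 library 2). For each of these the cause was not tested. The counts of the other 2 lists stayed at 0 under every alternative run. The direction held in 17 of 17 alternatives for miR-148b-3p, miR-148b-5p, miR-152-3p and miR-152-5p and in 15 of 15 for the arm ratios of miR-148b and miR-152. It did not hold for miR-148a-3p, from -0.23 to 0.21 when a library was left out (-0.01 without DMSO library 2), or for the miR-148a arm ratio, from -0.52 to 0.0021. A filter at 10 CPM left no value for miR-148a-5p or its ratio. Over all miRNAs the 5 called became 1 without a variance trend, 16 after rescaling without the 5 most abundant and 36 in DESeq2. Leaving out libraries gave 1 to 19: 3, 1 and 4 without DMSO library 1, 2 or 3 and 19, 19 and 2 without RSL3 library 1, 2 or 3. Over all hairpins the 5 called ratios became 2 with a pseudocount of 0.5 or quantile normalization and 11 with a pseudocount of 5; they were 3, 1 and 1 without DMSO library 1, 2 or 3 and 6, 2 and 1 without RSL3 library 1, 2 or 3.

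Libraries of the same replicate number did not deviate alike: their deviations from the group means correlated, across miRNAs, at -0.35, -0.33 and -0.19. Differently numbered libraries ranged from 0.04 to 0.30, the highest being DMSO library 2 with RSL3 library 1. Deviations from a mean of 3 libraries depend on one another, so these values cannot show how the cultures were handled. With the replicate block 0 family arms and 0 family hairpins were called, as without it, and 1 miRNA of all tested and 2 hairpins of all. Low read numbers (4 to 15) limited miR-148a-5p, and its libraries also varied more than counting error gives.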
